A study of Homo sapiens with 45 samples.

Results

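The genes described here are 33 human genes of ribosome biogenesis and the nucleolus, taken by symbol from a table of 60676 genes. Of the 33, 32 had enough counts to be tested among 11078 genes. The exception was NOP2, the enzyme that methylates a cytosine of the large subunit rRNA. They were measured by mRNA sequencing in 45 libraries of HAP1, a near-haploid derivative of the line KBM-7. The 6 genotypes were AAVS1 (the reference here, named after a site often edited as a neutral control), RNF25 KO, GCN2 KO, ZNF598 KO, the double knockout RNF25 GCN2 DKO, and eS31 K113R, a lysine-to-arginine change in a small subunit ribosomal protein. RNF25 and ZNF598 attach ubiquitin to ribosomal proteins when translation stalls, and GCN2 is a kinase that starts the integrated stress response. Every genotype was sampled untreated and after 4 h in 5 uM azacytidine (azaC), a nucleoside analogue. AAVS1, RNF25 KO and GCN2 KO cells were also sampled after 4 h in 25 nM halofuginone (HF), which blocks the charging of prolyl-tRNA. There were 3 libraries in each of the 15 groups, labelled as biological replicates without saying what was separate, so p-values measure only the spread between these libraries, which may be technical. The number of clones per genotype is not given in the sources used here, and a difference between genotypes cannot be told apart from a difference between clones.

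Ribosomes are assembled in the nucleolus. RNA polymerase I makes a long precursor rRNA, small nucleolar ribonucleoproteins (snoRNPs) guide its methylation and pseudouridylation, and separate sets of assembly factors fold and cut it into the small (40S) and large (60S) subunits. Growth signals and the transcription factor MYC, which binds E-box sequences, are known to drive many of these genes, and stress that lowers translation is known to slow the pathway.

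The promoters of the members are shown first, since the choice of members did not use them and 1 motif recurs in them. RefSeq promoter windows of GRCh38.p14, running from 250 bases before to 50 bases after the start of transcription, were matched for 27 of the 33 members. The E-box CACGTG lay in the windows of 13 of the 27 (48.1%), against 8.77% of all 27305 genes with a window and 13.1% of the 8248 tested genes with one. These 13 were GNL3, FBL, GAR1, NOP10, UTP4, UTP20, RRP9, BYSL, PNO1, PES1, NOP2, MRTO4 and DDX21. Of their 14 E-boxes, 13 began within 40 bases of the start. The ETS-type motif CCGGAAG, searched on both strands, was in the windows of 10 of 27 (37%), against 12.2% of all genes and 23.5% of those tested. TGATGCAA, a sequence bound by ATF4 and CHOP dimers and also searched on both strands, was in 0 of 27, against 1.08% and 0.74%. NIP7 and NOP16, the members called lower with HF, had the ETS-type motif and no E-box, and KRI1 had neither. A match is a description of letters, not a binding site. Examples that lie outside annotated exons are the following, each written 5′ to 3′ on the gene's strand as the 30 bases ending with the motif, which is in capitals (CTTCCGG is CCGGAAG on the other strand).
UTP20, E-box starting at position -10, chr12:101280071-101280100, plus strand: gcctgcgccgttcttttttccgtcCACGTG
GAR1, ETS-type motif starting at -28, chr4:109815459-109815488, plus strand: ccaagagcaacattgccgcagcaCTTCCGG
DDX21, ETS-type motif starting at -60, chr10:68956087-68956116, plus strand: ttttcctgtgcttcctgcttcccCCGGAAG
LAS1L, ETS-type motif starting at -142, chrX:65534923-65534952, minus strand: gggtttgctttgtgaaaagaacaCTTCCGG

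Library totals ran from 1135498 to 2478875 counts, with a median of 1541554. Of 10 genes of the integrated stress response used as a treatment check, HF raised 10 in AAVS1, 9 in RNF25 KO and 2 in GCN2 KO, and azaC raised 7 in AAVS1, 9 in RNF25 KO, 0 in GCN2 KO, 7 in ZNF598 KO, 9 in eS31 K113R and 0 in RNF25 GCN2 DKO. The mRNA of EIF2AK4, which encodes GCN2, had a median of 22.4 CPM (counts scaled to a common library size) in the 15 libraries of cells targeted for it and 44.9 CPM in the other 30. ZNF598 had a median of 42.3 CPM in its 6 knockout libraries and 84.1 CPM in the other 39. RNF25 mRNA had at most 7 counts in any library, so its level checks no label. Summed counts of 8 blood, 7 epithelial and 7 neural marker genes were 0 to 2, 0 to 5 and 11 to 68 per library. The neural sum was mostly OLIG2, at 8 to 60 counts. SYP had at most 11 counts, RBFOX3 and SNAP25 at most 2, NEUROD1 at most 1, and GFAP and TUBB3 had 0. KBM-7 is a leukaemia line, and PTPRC, the marker shared by white blood cells, had at most 1 count in any library. Of the 3 untreated eS31 K113R libraries, 2 carry a genotype label naming another ribosomal protein change and were placed by the table column given in their descriptions.

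Untreated AAVS1 replicate 2 stood apart from the other libraries and is the reference of many comparisons. The slope of its counts on transcript GC content, relative to the mean of the libraries, was -0.399 log2 units per SD of GC, the lowest of the 45. Of the 32 tested members, 8 had their lowest level of all 45 libraries in it (FBL, DKC1, NHP2, RRP12, KRI1, BOP1, PES1 and LAS1L) and 5 had their highest (POLR1B, NCL, NOP58, PNO1 and WDR12). RNF25 KO azaC replicate 2 had the opposite slope, 0.299. Values without one or both are given beside several results. All values are relative to each library's total, so fewer cells of a type and less RNA per cell cannot be told apart.

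The members were on the whole abundant and steady. Their median level over all libraries was 89.1 CPM, against 25.9 CPM for all tested genes. The ratio of the highest to the lowest of the 15 group means was 1.53 for the median member, against 2.02 for the median tested gene, and ran from 1.27 for DDX21, an RNA helicase, to 2.75 for MRTO4, a placeholder for the ribosomal stalk. The MRTO4 ratio was 1.62 without RNF25 KO azaC replicate 2. LAS1L, an endonuclease that cuts the spacer before the large subunit rRNA, was at 2.74, then KRI1 at 2.61, NIP7 at 2.28 and RRS1 at 1.95. The members' higher counts carry less counting error than those of the median gene, and the part of this in the ratios was not tested.

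Levels scaled to exon length, in CPM per kb of untreated AAVS1 cells, spread over more than 2 orders of magnitude. NOP10, FBL, NCL, NPM1 and DDX21 were highest. The box H/ACA proteins, which carry out pseudouridylation, ran from 33.9 for GAR1 to 369 for NOP10, with DKC1, the pseudouridine synthase itself, at 158 and NHP2 at 102. Of the box C/D proteins, which methylate ribose, FBL, the methyltransferase, was at 293, NOP58 at 146 and NOP56 at 84.6. The scaffold proteins nucleolin (NCL) and nucleophosmin (NPM1) were at 292 and 287, and the same group reached down to 16.3 for TCOF1, the treacle protein that links polymerase I to snoRNPs. The RNA polymerase I subunits POLR1A and POLR1B were at 2.06 and 4.497. Factors of the small subunit lay between 4.06 for RRP12, below POLR1B, and 50.3 for RRP9, a protein of the U3 snoRNP, and those of the large subunit between 9.66 for WDR12 and 282 for DDX21.

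**Figure D1:**
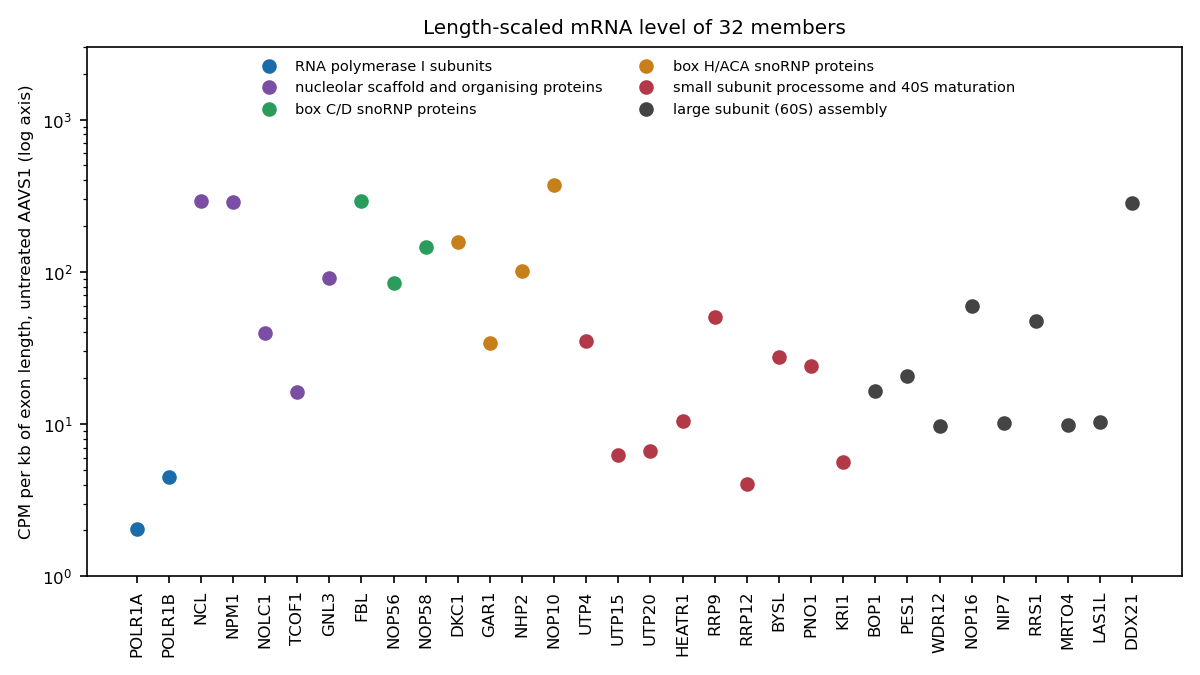
Length-scaled mRNA level (CPM per kb of exon length, log axis) of the 32 tested members in untreated AAVS1 cells, each point the mean of 3 libraries, coloured by role. NOP10, FBL, NCL, NPM1 and DDX21 stand above 280 and the polymerase I subunits below 5.

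NOP2 had 0 to 6 counts per library and 54 in all. In GENCODE v29 its exons on chromosome 12 (6556863 to 6568691, minus strand, GRCh38) share 54.4% of their length with the same-strand gene AC006064.6. The part of this overlap in the low counts was not tested, and they are not read here as a level of expression.

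HF lowered 2 members, NIP7 and NOP16, each in 2 of the 3 genotypes, and no member rose past the threshold in any. In AAVS1, 0 of 32 members were higher and 1, NIP7, was lower at an adjusted p under 0.05 (edgeR quasi-likelihood test, Benjamini-Hochberg adjustment over all tested genes), against 1.06% of all tested genes higher and 0.487% lower. In RNF25 KO, 0 were higher and 2, NIP7 and NOP16, were lower, against 1.23% and 0.506% of all genes. In GCN2 KO, 0 were higher and 1, NOP16, was lower, against 0.731% and 0.506%. Both genes encode 60S factors, and of 54 other 60S factors tested, 0 were lower in any of the 3 genotypes (edgeR). DESeq2 and limma-voom also called 0 members higher in each genotype. At an unadjusted p under 0.05 there were 8, 4 and 1 members in AAVS1, RNF25 KO and GCN2 KO, or 25%, 12.5% and 3.12% of members against 11.2%, 10.9% and 9.8% of all genes.

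NIP7, a factor in the processing of pre-rRNA that binds late 60S precursors, had the largest log2 fold change of the members with HF in AAVS1 and in RNF25 KO. Its gene lies on chromosome 16 (69337996 to 69343111, plus strand, GRCh38). In AAVS1 it stood at 38.7, 51.9 and 53.9 CPM untreated and at 14.0, 30.4 and 27.2 CPM with HF. In RNF25 KO it stood at 72.5, 51.0 and 39.9 CPM untreated and at 19.4, 30.3 and 27.3 CPM with HF. Every HF library of both genotypes was below every untreated library of the same genotype. NIP7 fell by 1.00 ± 0.25 (SE) on the log2 scale in AAVS1 (edgeR adjusted p = 0.0180) and by 1.08 ± 0.25 in RNF25 KO (edgeR adjusted p = 0.00731), that is, to means of 23.9 ± 8.72 (SD, n = 3) and 25.7 ± 5.59 CPM. In GCN2 KO it stood at 49.4, 48.2 and 41.2 CPM untreated and 32.6, 40.5 and 37.8 CPM with HF, again without overlap, and its log2 fold change of -0.32 ± 0.24 did not pass (edgeR adjusted p = 0.751). The AAVS1 call rested on single libraries: it was lost without untreated replicate 2 (-0.94, edgeR adjusted p = 0.0868), without untreated replicate 3 (-0.92, 0.0686) and without HF replicate 1, which had 18 counts of NIP7 (-0.75, 0.241). The RNF25 KO call was lost without untreated replicate 1 (-0.83, 0.147) and without HF replicate 1 (-0.91, 0.110).

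NOP16, a nucleolar protein of early 60S precursors, had a lower mean with HF in all 3 genotypes. Its gene lies on chromosome 5 (176383938 to 176388975, minus strand, GRCh38). In AAVS1 it stood at 188, 134 and 189 CPM untreated and 115, 99.5 and 143 CPM with HF, so that the groups overlapped and the log2 fold change of -0.51 ± 0.17 did not pass (edgeR adjusted p = 0.139). Without untreated replicate 2 it was -0.66 (0.0566), and with RNF25 KO azaC replicate 2 left out as well it was -0.66 and passed (0.0474). In RNF25 KO the values were 166, 191 and 153 CPM untreated and 73.6, 116 and 123 CPM with HF, without overlap, and NOP16 fell by 0.71 ± 0.17 on the log2 scale (edgeR adjusted p = 0.0144). In GCN2 KO the values were 173, 172 and 188 CPM untreated and 96.4, 109 and 115 CPM with HF, without overlap, and NOP16 fell by 0.73 ± 0.17 (edgeR adjusted p = 0.0172). The RNF25 KO call was lost without untreated replicate 2 (-0.62, 0.106) and without HF replicate 1 (-0.51, 0.249). The GCN2 KO call was lost without any one of the 3 untreated libraries or of HF replicates 1 and 2, at adjusted p-values from 0.0503 to 0.144, with the log2 fold change between -0.75 and -0.67.

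RRS1, which brings the 5S particle into the 60S precursor, came closest to the threshold in AAVS1. It stood at 99.8, 69.4 and 75.8 CPM untreated and at 48.1, 46.9 and 40.6 CPM with HF, without overlap, a log2 fold change of -0.85 ± 0.24 (edgeR adjusted p = 0.0576). With the replicate number as a block in the fit, RRS1 fell by 0.84 (edgeR adjusted p = 0.00483) beside NIP7 (1.00 lower, 0.00915), so that the count of lower members in AAVS1 went from 1 to 2. In RNF25 KO and GCN2 KO the log2 fold changes of RRS1 were -0.53 ± 0.24 and -0.27, with edgeR adjusted p-values of 0.390 and 0.808.

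**Figure D2:**
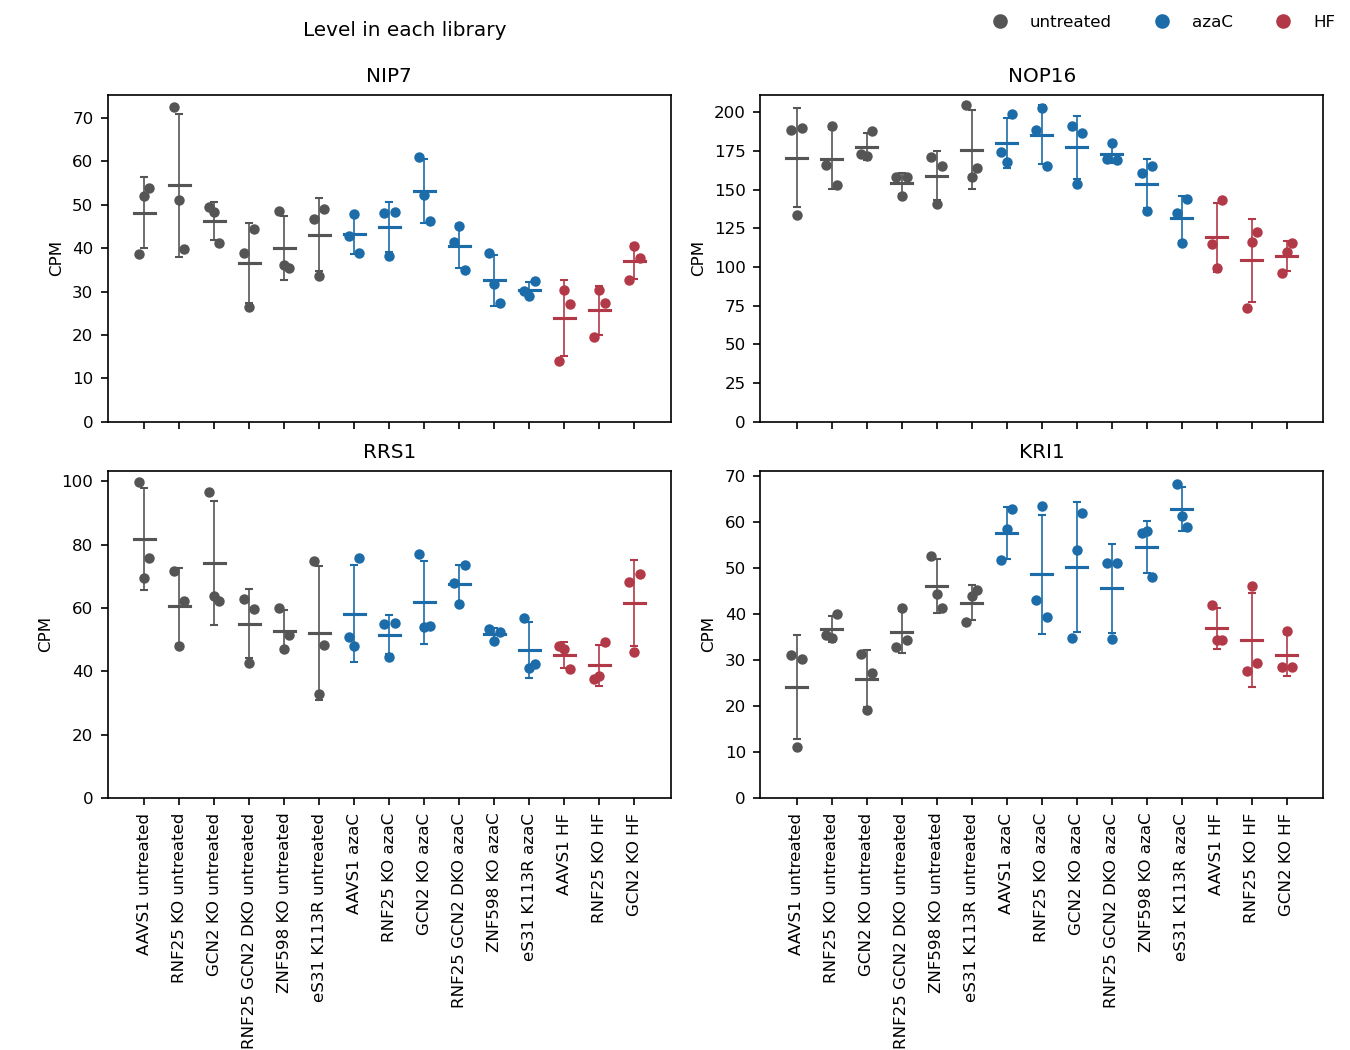
Levels (CPM, linear axis from 0) of NIP7, NOP16, RRS1 and KRI1 in the 45 libraries, by group; points are libraries, horizontal bars means and vertical bars 1 SD. The 3 HF groups of NOP16 have means of 104 to 119 CPM, and the lowest KRI1 point is untreated AAVS1 replicate 2 at 10.98 CPM.

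The other 60S factors did not move in one direction. BOP1, PES1 and WDR12, which form the PeBoW complex of the large subunit, had log2 fold changes with HF of 0.60, 0.15 and 0.01 in AAVS1, 0.32, 0.02 and -0.48 in RNF25 KO, and -0.23, -0.27 and -0.25 in GCN2 KO, and no member of the complex passed. The values of BOP1 (65.4, 27.9 and 90.6 CPM) and LAS1L (59.4, 27.4 and 86.7 CPM) in untreated AAVS1 show how far replicate 2 lay below its group. LAS1L had a log2 fold change of 0.53 in AAVS1 and of -0.04 and 0.02 in RNF25 KO and GCN2 KO. MRTO4 was 0.42 ± 0.41 higher in GCN2 KO, with all HF libraries above the untreated ones and an edgeR adjusted p of 0.844.

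Among factors of the small subunit, no member passed with HF in any genotype. KRI1, a factor of early 40S precursors, had the largest value in AAVS1, at 31.0, 10.98 and 30.2 CPM untreated and 41.9, 34.2 and 34.4 CPM with HF. All HF libraries were above, and the log2 fold change was 0.65 ± 0.27 (edgeR adjusted p = 0.315), or 0.26 without untreated replicate 2 (0.787). In RNF25 KO and GCN2 KO, KRI1 had log2 fold changes of -0.10 and 0.25. BYSL, which binds late 40S precursors, was at -0.40 ± 0.20, -0.31 and -0.26 in AAVS1, RNF25 KO and GCN2 KO, with the AAVS1 libraries all below (edgeR adjusted p = 0.432). UTP15 and UTP4, proteins of the subcomplex that joins the precursor during transcription, had the largest values after NOP16 in GCN2 KO, at -0.57 ± 0.30 (edgeR adjusted p = 0.546) and -0.42 ± 0.22 (0.534).

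No snoRNP protein, scaffold protein or polymerase I subunit passed with HF. GAR1, of the box H/ACA group, was at -0.44 in RNF25 KO with all HF libraries below the untreated ones, and at -0.18 in AAVS1 and GCN2 KO. DKC1 had the largest value of the box H/ACA group in AAVS1, 0.37 ± 0.15 (edgeR adjusted p = 0.312), with untreated libraries at 747, 492 and 748 CPM and HF libraries at 826, 858 and 873 CPM. The 1 low value was again untreated replicate 2. The 3 box C/D proteins ran from -0.31 for NOP56 to 0.08 for NOP58 in RNF25 KO and from -0.29 to 0.10 for the same genes in GCN2 KO. All 5 scaffold proteins had a log2 fold change below 0 in GCN2 KO, from -0.31 for GNL3, the nucleostemin GTPase, to -0.03 for NCL. POLR1A and POLR1B were at 0.06 and -0.14 in AAVS1, -0.22 and -0.18 in RNF25 KO and -0.10 and -0.38 in GCN2 KO.

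**Figure D3:**
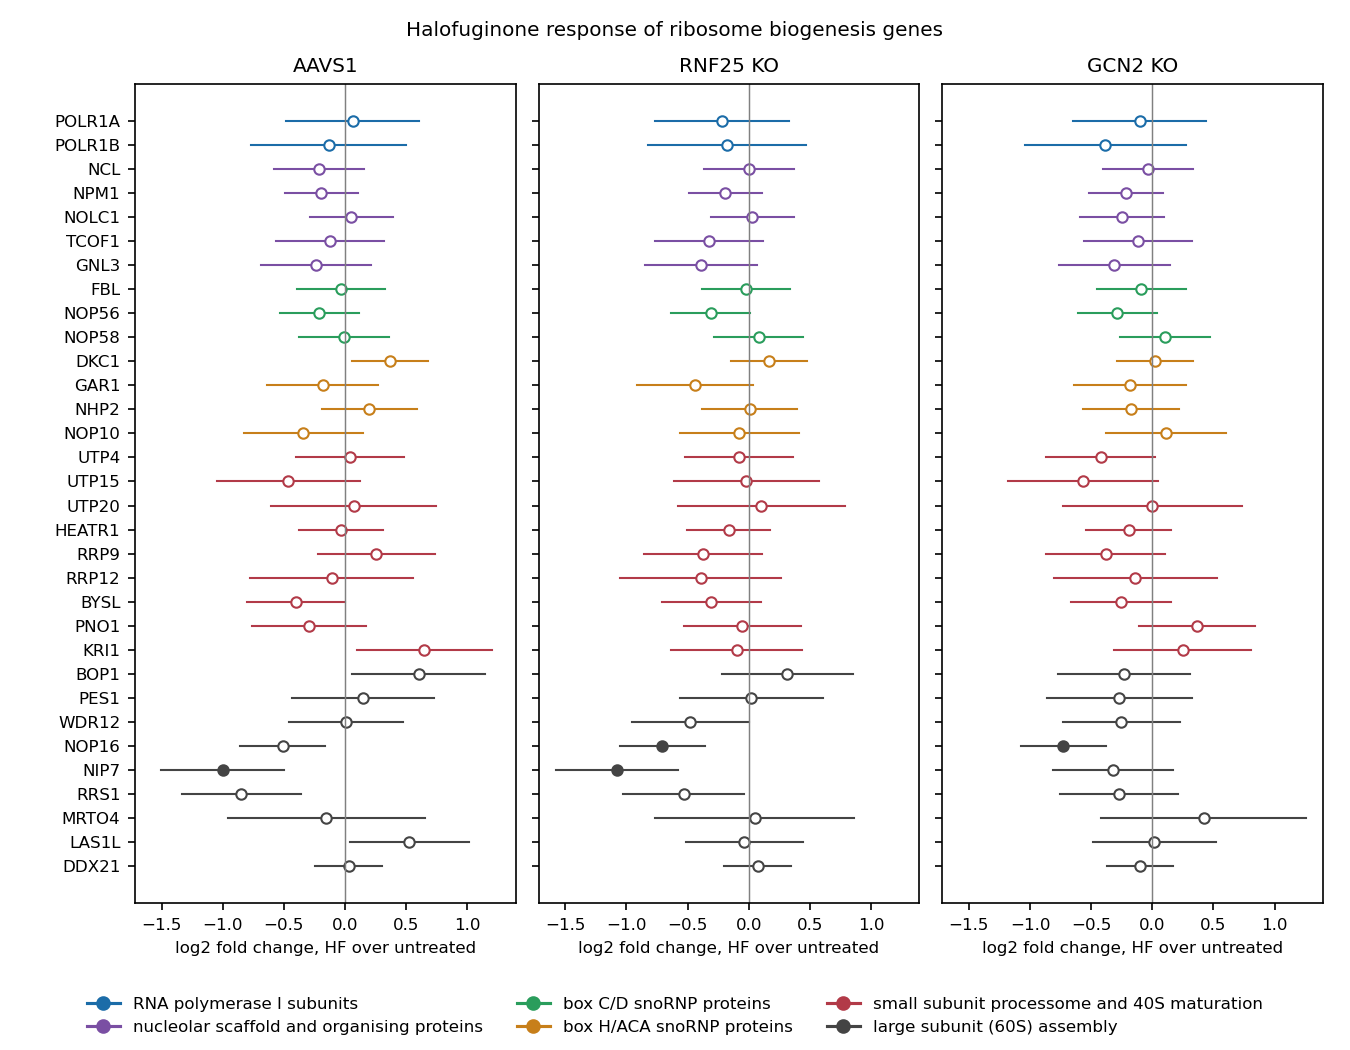
Log2 fold change (HF over untreated) of each tested member in AAVS1, RNF25 KO and GCN2 KO, with the 95% interval of the fit; colours give roles and filled points pass the adjusted threshold of 0.05. The filled points are NIP7 in AAVS1, NIP7 and NOP16 in RNF25 KO and NOP16 in GCN2 KO.

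Over all 32 tested members, the median log2 fold change with HF was -0.07 in AAVS1 (0.00 without HF replicate 1), -0.09 in RNF25 KO and -0.19 in GCN2 KO, and 19, 22 and 24 members were below 0. Over all tested genes the medians were 0.01, 0.00 and 0.00. Members with all 3 HF libraries above all untreated ones numbered 2, 0 and 1 in AAVS1, RNF25 KO and GCN2 KO, against 7.29%, 8.45% and 9.05% of all genes. Members with all HF libraries below numbered 4, 4 and 6, against 7.05%, 6.9% and 7.92%. Summed over the 33 members, the level went from 9197 ± 362 (SD, n = 3) to 8780 ± 501 CPM in AAVS1, from 8667 ± 569 to 8329 ± 186 CPM in RNF25 KO, and from 9044 ± 570 to 8346 ± 124 CPM in GCN2 KO. The 95% interval of the log2 fold change lay within 1 log2 unit of 0, that is, within 2-fold, for 26, 28 and 28 of the 32 members.

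No member's HF response differed between genotypes past the threshold. The counts were 0 of 32 for GCN2 KO against AAVS1, where 0.334% of all genes passed, 0 for RNF25 KO against AAVS1, where 0% did, and 0 for GCN2 KO against RNF25 KO, where 0.271% did (edgeR, interaction contrasts). At an unadjusted p under 0.05 there were 2, 0 and 1 members, or 6.25%, 0% and 3.12%, against 7.19%, 2.63% and 5.05% of all genes, and DESeq2 and limma-voom called 0 in each contrast. The NIP7 response was 0.68 ± 0.34 less negative in GCN2 KO than in AAVS1 (95% interval -0.02 to 1.38, edgeR adjusted p = 0.711) and 0.76 ± 0.34 less negative than in RNF25 KO (0.05 to 1.46, 0.898). Between RNF25 KO and AAVS1 it differed by -0.08, with an interval of -0.79 to 0.63. The first 2 intervals reach from about 0 to more than the whole HF response of NIP7 in AAVS1, and neither difference passed the adjustment. The NOP16 response differed by -0.02 between GCN2 KO and RNF25 KO, with an interval of -0.51 to 0.47.

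The other large differences did not pass either, and several moved without untreated AAVS1 replicate 2. BOP1 differed by -0.84 ± 0.38 between GCN2 KO and AAVS1 (edgeR adjusted p = 0.630), and by -0.48 without that library. PNO1, a factor of 40S maturation, differed by 0.66 ± 0.33 in the same contrast (0.682), and by 0.46 without it. KRI1 differed by -0.75 ± 0.38 between RNF25 KO and AAVS1, and by -0.37 without it. LAS1L differed by -0.56 in that contrast, and by -0.21 without it. RRP9 differed by -0.63, by -0.52 without it and by -0.38 without untreated RNF25 KO replicate 1. UTP15 and BOP1 differed by -0.55 each between GCN2 KO and RNF25 KO. The edgeR adjusted p-values of the last 5 were 0.9999 or higher.

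AzaC changed 1 member in 1 genotype. KRI1 was the only 1 of 32 members higher in AAVS1, against 0.117% of all genes, and 0 were lower, against 0%. The count of members called in either direction was 0 in RNF25 KO, GCN2 KO, ZNF598 KO, eS31 K113R and RNF25 GCN2 DKO, against 0.469%, 0%, 0.117%, 0.515% and 0% of all genes (edgeR), and 0 with DESeq2 and limma-voom too. At an unadjusted p under 0.05 there were 6 members in AAVS1, 3 in RNF25 KO, 2 in GCN2 KO, 0 in ZNF598 KO, 3 in eS31 K113R and 0 in RNF25 GCN2 DKO. In the same order these were 18.8%, 9.38%, 6.25%, 0%, 9.38% and 0% of members, against 4.83%, 9.31%, 3.66%, 2.99%, 5.22% and 2.63% of all genes. Members with all 3 azaC libraries above all untreated ones numbered 3, 0, 2, 1, 1 and 3, against 4.43%, 5.98%, 4.96%, 4.48%, 5.6% and 4.14% of all genes, and those with all below 2, 3, 2, 1, 4 and 0, against 4.35%, 4.85%, 4.35%, 4.07%, 4.73% and 3.68%.

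KRI1 lies on chromosome 19 (10553078 to 10566037, minus strand, GRCh38). In AAVS1 it stood at 31.0, 10.98 and 30.2 CPM untreated and 51.6, 58.5 and 62.8 CPM with azaC, without overlap. It rose by 1.30 ± 0.26 on the log2 scale (edgeR adjusted p = 0.0120), from 24.0 ± 11.3 (SD, n = 3) to 57.6 ± 5.63 CPM. Without untreated replicate 2, which had 22 counts of KRI1, the log2 fold change was 0.92 and the edgeR adjusted p 0.611, and the call was also lost without azaC replicate 2 (0.0747) and replicate 3 (0.0890). In GCN2 KO, KRI1 stood at 31.2, 19.1 and 27.2 CPM untreated and 34.6, 54.0 and 62.0 CPM with azaC, again without overlap, a log2 fold change of 0.95 ± 0.27 with an edgeR adjusted p of 1. It was also above 0 in the other 4 genotypes, at 0.42 in RNF25 KO, 0.25 in ZNF598 KO, 0.56 in eS31 K113R and 0.33 in RNF25 GCN2 DKO. The 6 values do not share controls. The KRI1 response was 0.88 ± 0.37 smaller in RNF25 KO than in AAVS1, with an edgeR adjusted p of 1.00.

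MRTO4 had the largest azaC value in RNF25 KO, and a single library set it. Its untreated libraries were at 28.2, 29.2 and 18.1 CPM and its azaC libraries at 32.6, 120.0 and 19.7 CPM, the high one being replicate 2, the library with the outlying GC slope. The log2 fold change was 1.23 ± 0.38 (edgeR adjusted p = 0.205), and 0.05 (1) without azaC replicate 2. It was 1.63 and passed without azaC replicate 3 (0.0133). Differences between genotypes in the azaC response included 0 of 32 members for RNF25 KO against AAVS1 (0% of all genes), 0 for GCN2 KO against AAVS1 (0.00903%) and 0 for RNF25 GCN2 DKO against RNF25 KO (0.117%). The median log2 fold change of the members with azaC was -0.09 in AAVS1 (0.02 without azaC replicate 1), -0.04 in RNF25 KO, -0.02 in GCN2 KO, 0.01 in ZNF598 KO, -0.03 in eS31 K113R and 0.09 in RNF25 GCN2 DKO. In the double knockout 23 of 32 members, among them all 9 tested 60S factors, were above 0. None passed, and 0 had an unadjusted p under 0.05, against 2.63% of all genes (edgeR). The members share these libraries, so their signs are not independent.

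**Figure D4:**
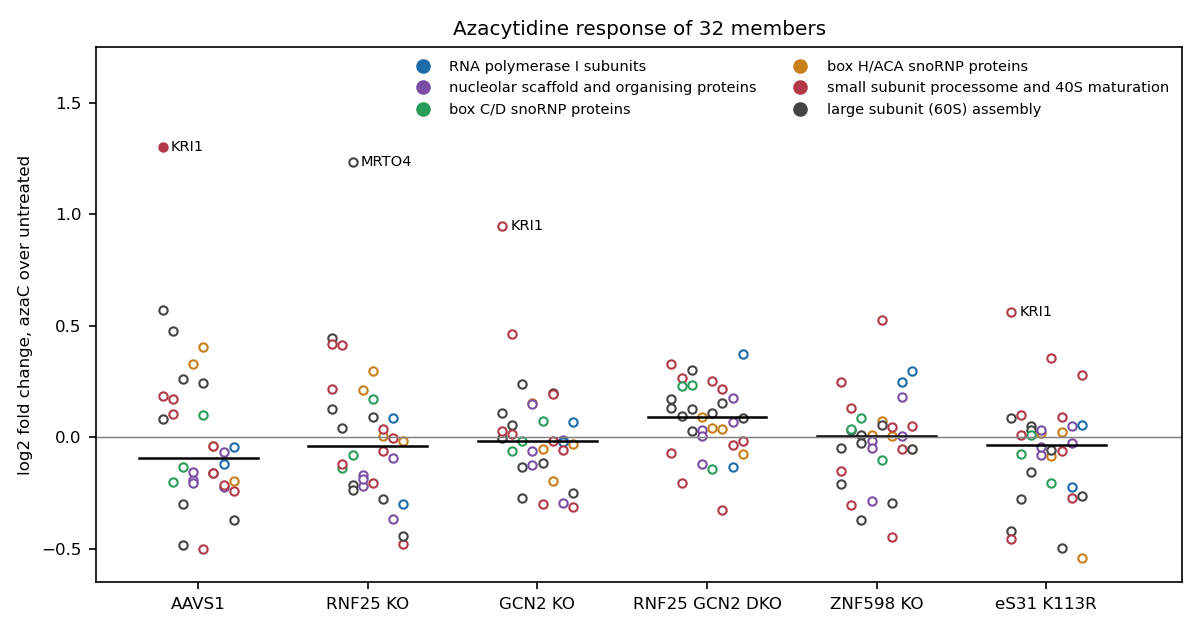
Log2 fold change (azaC over untreated) of the 32 tested members in 6 genotypes, coloured by role, with a black bar at the median; filled points pass the adjusted threshold of 0.05. The 1 filled point is KRI1 in AAVS1 at 1.30, and the medians lie between -0.09 and 0.09.

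HF and azaC were also set against each other, within a genotype. In AAVS1, 0 members were higher with HF than with azaC and 0 lower, against 0.686% and 0.307% of all genes. In RNF25 KO, 0 were higher and 1, NOP16, was lower, against 0.298% and 0.433%. In GCN2 KO, 0 were higher and 1, again NOP16, was lower, against 0.451% and 0.623%. NOP16 stood at 188, 203 and 165 CPM with azaC in RNF25 KO and at 191, 154 and 187 CPM in GCN2 KO, above all HF libraries of the same genotype. It was lower with HF by 0.83 ± 0.17 in RNF25 KO (edgeR adjusted p = 0.0108) and by 0.72 ± 0.17 in GCN2 KO (0.0203). In AAVS1 the log2 fold change of NOP16 was -0.59 ± 0.17 (edgeR adjusted p = 0.0819), and it was 0.60 lower with the replicate block (0.0228), which took the count of lower members from 0 to 1.

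Members with all HF libraries below all azaC libraries numbered 6, 4 and 6 in AAVS1, RNF25 KO and GCN2 KO, against 7.43%, 7.1% and 8.35% of all genes, and those above 2, 2 and 0, against 8.39%, 7.56% and 8.37%. BYSL, NIP7 and NOP16 were among those below in all 3. The log2 fold changes of BYSL were -0.51, -0.72 and -0.72 in AAVS1, RNF25 KO and GCN2 KO (edgeR adjusted p = 0.308, 0.0612 and 0.0538). Those of NIP7 were -0.84, -0.80 and -0.52 (0.0974, 0.103 and 0.386). BYSL stood at 45.01, 45.6 and 48.8 CPM with HF and 70.5, 72.1 and 56.0 CPM with azaC in AAVS1. These contrasts share their HF libraries with the HF responses above and are not independent of them. The call of NOP16 in RNF25 KO was lost without azaC replicate 2 and without HF replicates 1 and 2 (edgeR adjusted p from 0.0506 to 0.0990), and that in GCN2 KO without azaC replicates 1 and 3 and HF replicates 1 and 2 (0.0787 to 0.162).

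In untreated cells no member passed between AAVS1 and another genotype. The count was 0 of 32 in either direction for RNF25 KO, GCN2 KO, ZNF598 KO, eS31 K113R and RNF25 GCN2 DKO, against 1.62%, 1.05%, 0.93%, 2.87% and 1.42% of all genes (edgeR). At an unadjusted p under 0.05 there were 2, 1, 9, 4 and 5 members, or 6.25%, 3.12%, 28.1%, 12.5% and 15.6%, against 9.71%, 9.58%, 8.92%, 11.8% and 9.18% of all genes. KRI1 was called higher in ZNF598 KO by DESeq2 and limma-voom and in eS31 K113R by limma-voom. All 5 contrasts share the 3 untreated AAVS1 libraries. Members with all libraries above those numbered 1, 0, 2, 1 and 1, in the order above, against 6.14%, 6.25%, 5.71%, 6.45% and 6.34% of all genes, and those below 2, 1, 5, 2 and 6, against 6.02%, 6.42%, 5.57%, 7.19% and 5.99%. NPM1, NOLC1, UTP15, RRS1 and DDX21 were below in both ZNF598 KO and RNF25 GCN2 DKO, and NOP56 in the latter. KRI1 was above in RNF25 KO, ZNF598 KO, eS31 K113R and RNF25 GCN2 DKO, with log2 fold changes of 0.65, 0.97, 0.86 and 0.63 and edgeR adjusted p-values of 0.368, 0.0652, 0.0792 and 0.413. Without untreated AAVS1 replicate 2, these log2 fold changes were 0.27, 0.59, 0.47 and 0.25 (edgeR adjusted p = 0.905, 0.548, 0.539 and 0.840). With the replicate block, KRI1 passed in ZNF598 KO (0.98 higher, edgeR adjusted p = 0.0349) and eS31 K113R (0.87 higher, 0.04995). RRS1 was at -0.65 in eS31 K113R without the block (edgeR adjusted p = 0.178) and passed as lower with it (0.67 lower, 0.0274). The labels of eS31 K113R replicates 2 and 3 name another change. In the fit without the block, leaving out replicate 2 gave RRS1 -0.41 (edgeR adjusted p = 0.619). Leaving out replicate 1, whose label names eS31 K113R, gave RRS1 -1.01, which passed (0.0217). The lower RRS1 value came mainly from the libraries with the other label. Over all alternatives, the RRS1 value ran from -1.01 to -0.12. In ZNF598 KO, UTP15 was at 16.0, 20.1 and 28.1 CPM against 42.2, 40.4 and 35.3 CPM in AAVS1, a log2 fold change of -0.86 ± 0.29 (edgeR adjusted p = 0.212). LAS1L was lowest in eS31 K113R, at 36.7, 39.0 and 39.9 CPM untreated and 32.5, 30.1 and 33.03 CPM with azaC. Its log2 fold change against untreated AAVS1 was -0.57, and it passed without AAVS1 replicate 2 (-0.94, edgeR adjusted p = 0.0146). LAS1L and DKC1 are the members on chromosome X, and the group mean of DKC1 was also lowest in untreated eS31 K113R, at 602 CPM. Whether other genes of that chromosome share this was not tested.

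Summed over the members, the level was lowest in untreated RNF25 GCN2 DKO cells, at 8111 ± 294 (SD, n = 3) CPM, and highest in untreated AAVS1 cells, at 9197 ± 362 CPM. As a share of all counts, the members took 0.763% to 1.00% of a library. Replicate 2 had the highest share in 14 of the 15 groups and the lowest GC slope in 13 of the 15. The median share was 0.823% for replicate 1, 0.881% for replicate 2 and 0.847% for replicate 3. In CPM on effective library sizes, replicates 1, 2 and 3 had the highest sum in 1, 8 and 6 groups. The part of GC content in this share was not tested.

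**Figure D5:**
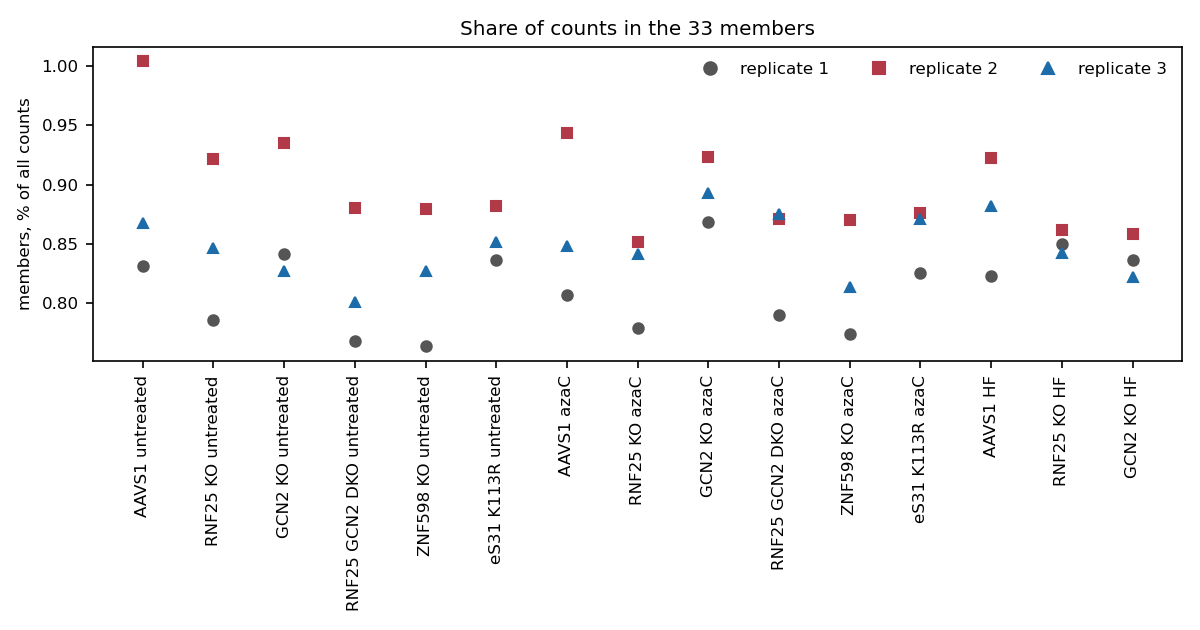
Share of all counts (%) that fell on the 33 members in each of 45 libraries, by group, with the replicate number as marker. The squares of replicate 2 are highest in 14 of 15 groups, and the highest of all is untreated AAVS1 at 1.00%.

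Few other genes of the pathway passed. Of 115 further ribosome biogenesis genes in a fixed list, 108 were tested. With HF, 0 were higher and 2, the same 2 genes, were lower in AAVS1 and in RNF25 KO (edgeR). Of all genes, 1.06% and 1.23% were higher there and 0.487% and 0.506% lower. In GCN2 KO 0 passed in either direction (edgeR), and 12 had an unadjusted p under 0.05, against 9.8% of all genes. With azaC 0 passed in any of the 6 genotypes (edgeR). An unadjusted p under 0.05 was found for 0 to 15, against 2.63% to 9.31% of all genes. Both genes called with HF, UTP3 and IMP3, belong to the small subunit processome. UTP3 stood at 93.8, 83.8 and 76.4 CPM untreated and 31.0, 43.7 and 52.4 CPM with HF in AAVS1, and it fell by 0.98 ± 0.26 on the log2 scale in AAVS1 (edgeR adjusted p = 0.0397) and by 1.17 ± 0.27 in RNF25 KO (0.00957). IMP3 fell by 0.63 ± 0.17 in both (0.0448 and 0.0408). The UTP3 call was lost in AAVS1 without untreated replicate 1 or 2 or HF replicate 1 or 2 (edgeR adjusted p from 0.0989 to 0.298) and in RNF25 KO without untreated replicate 3 or HF replicate 2 (0.0570 and 0.171). The IMP3 calls were lost without any one library except HF replicate 3 of either genotype (0.0562 to 0.359). In GCN2 KO their log2 fold changes were 0.01 ± 0.26 and 0.01 ± 0.17. The differences between GCN2 KO and AAVS1, 0.99 ± 0.37 for UTP3 and 0.64 ± 0.24 for IMP3, did not pass (edgeR adjusted p = 0.474 and 0.486). The medians of the 108 genes with HF were -0.06, -0.11 and -0.06 in AAVS1, RNF25 KO and GCN2 KO. With azaC they ran from -0.14 in RNF25 KO, where 78 were below 0, to 0.06 in RNF25 GCN2 DKO, where 71 were above 0. Against azaC, GRWD1 was lower with HF in AAVS1 (1.06 lower, edgeR adjusted p = 0.0359) and RRP1B in GCN2 KO (0.63 lower, 0.0112). The GRWD1 call was lost without any one library except HF replicate 3 (0.0540 to 0.186), and the RRP1B call without azaC replicate 3 or HF replicate 2 (0.0765 and 0.0945).

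Of the 9 tested genes of the MYC network, 1 was higher with HF in RNF25 KO (edgeR), against 1.23% of all genes. In AAVS1 and GCN2 KO 0 passed, and 2 each had an unadjusted p under 0.05, against 11.2% and 9.8% of all genes. The gene called in RNF25 KO was MXI1, an antagonist of MYC (0.98 ± 0.24 higher, edgeR adjusted p = 0.0174). MXI1 was also higher with HF than with azaC in RNF25 KO (1.00 higher, edgeR adjusted p = 0.0303) and lower in untreated GCN2 KO than in AAVS1 (1.27 lower, 0.00304). The call with HF was lost without untreated replicate 1 or HF replicate 1 or 2 (0.0766 to 0.168), and that against azaC without azaC replicate 2 or HF replicate 1 or 2 (0.103 to 0.272). MYC itself had log2 fold changes with HF of 1.01 ± 1.28, 1.00 ± 1.37 and 1.39 ± 1.41 in AAVS1, RNF25 KO and GCN2 KO, with SEs above 1 log2 unit.

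Whether the counting used strand is not given in the sources used here, and some members overlap a gene on the other strand. NIP7 shares 20.2% of its exon length with COG8, whose group means were 0 to 1.77 CPM. NOP16 shares 20% with ARL10 (0 to 0.242 CPM) and HIGD2A, which was abundant, with group means of 108 to 125 CPM. The log2 fold changes of HIGD2A with HF were 0.15, -0.22 and -0.03 in AAVS1, RNF25 KO and GCN2 KO (edgeR adjusted p from 0.784 to 0.985). The part of HIGD2A reads in the NOP16 counts was not tested. KRI1 shares 7.99% with ATG4D, at 0.34 with azaC in AAVS1 (edgeR adjusted p = 0.990). RRS1 shares 11.4% with AC009879.2 on its own strand.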

How the data were processed

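The 45 HAP1 libraries were made from polyA RNA with Lexogen's CORALL V2 kit, per the labels' protocols. The authors deposited raw counts per gene. Per the submitters' processing notes, the tools were STAR 2.7.10b and HTSeq 0.9.1, and the build was GRCh38. Whether reads were counted by strand or by molecular identifier, and on which annotation release, is not given in the sources used here.

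Counts were tested with edgeR 4.0.16 (R 4.3.3): filterByExpr with a minimum count of 10 kept 11078 of 27878 genes with a count, TMM scaling, 1 mean for each of 15 groups, 30 residual degrees of freedom, the quasi-likelihood test, and Benjamini-Hochberg adjustment within each of 23 comparisons at 0.05. The common biological coefficient of variation was 22.1%. CPM use effective library sizes, and ± on a log2 fold change is its SE. Library totals of 1135498 to 2478875 give lower members, such as MRTO4 and NIP7 with 17 and 18 counts in their shallowest library, a wide counting error. Of the table's entries, 2862 have no symbol. Lengths, GC content (for 11069 of the tested genes) and overlaps come from GENCODE v29, which holds 58503 of the table's genes, and promoters from RefSeq GRCh38.p14. The procedure was tested on simulated data. No 2 libraries of a group had counts alike within sampling noise (chi-square over its degrees of freedom was 2.90 or more).

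Same-numbered libraries deviated from their group means together: over 315 pairs the median correlation was 0.149 (-0.247 to 0.463), and all 3 pairs exceeded 0.1 in 11 of 17 comparisons of 2 groups, HF in AAVS1 (0.105, 0.266 and 0.289), HF against azaC in AAVS1 and all untreated comparisons among them. The labels do not say what a number shares. Blocked values are printed beside the results they change there.

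Members and lists were chosen with earlier results of these data known. Named are members past the threshold, the 3 with the largest HF values or HF differences, the extremes of a role, and genes of other lists that passed; BYSL, DKC1, BOP1, LAS1L, MRTO4, MYC, genes that overlap a member and the values without single libraries were added after their values were seen. Alternatives were RLE scaling, DESeq2 1.42.0, limma-voom (limma 3.58.1), no filter, fits to the compared groups only, the replicate block, GC-corrected offsets, both together, each library left out, plain totals, 1 untreated eS31 K113R library and, chosen after seeing the data, both libraries with outlying GC slopes left out.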

Additional observations from a re-analysis of the deposited data

Results flagged for a closer look

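NOP16, the 60S factor that was lower with HF, lay on opposite sides of its untreated libraries with azaC in 2 genotypes. In RNF25 GCN2 DKO all 3 azaC libraries (170.0, 180.0 and 169 CPM) were above all untreated ones (158, 146 and 158 CPM), a log2 fold change of 0.17 ± 0.17 (edgeR adjusted p = 1). In eS31 K113R all 3 azaC libraries (135, 116 and 144 CPM) were below all untreated ones (205, 158 and 164 CPM), a log2 fold change of -0.42 ± 0.17 (edgeR adjusted p = 0.791). The log2 fold changes were 0.59 apart. The difference was not tested, and neither response passed the threshold on its own. It was the only case found in a scan of the 32 tested members over every pair of genotypes whose azaC responses were not compared above. Of all genes, 4.14% lay above in RNF25 GCN2 DKO and 4.73% below in eS31 K113R. How many such cases a scan of this size gives by chance was not tested.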

How the results depend on the processing

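Of 766 recomputed counts of called members, 696 were within 1.5 times the value reported and 70 were not. The 7 called member results kept their direction in all 105 recomputed values and missed the threshold in 33, and the 13 called results of other genes kept theirs in all 196 and missed it in 54. No single-gene result recomputed changed direction. The members' median changed sign in 43 of 383 recomputed values, in 11 of 23 comparisons, none with a reported median more than 0.0936 from 0, among them HF in AAVS1 (0.00 without HF replicate 1) and azaC in AAVS1 (0.02 without azaC replicate 1). Counts of lower members changed as follows. HF in AAVS1 (1 reported) gave 2 with DESeq2, 2 with GC-corrected offsets, 0 with the compared groups only and 0 without the filter. HF in RNF25 KO (2) gave 0 with the compared groups only and 1 without the filter, and HF in GCN2 KO (1) gave 0 without the filter. HF against azaC gave 2 with DESeq2 in AAVS1 (0 reported), RNF25 KO (1) and GCN2 KO (1). It gave 1 in AAVS1 and 2 in GCN2 KO without both libraries of outlying GC slope, 2 in GCN2 KO with limma-voom, 0 in RNF25 KO with the compared groups only, and without the filter 2 in RNF25 KO and 0 in GCN2 KO. With both libraries left out, HF in AAVS1 still gave 1, but NOP16 in place of NIP7. Untreated eS31 K113R (0) gave 1 with GC-corrected offsets and 1 without both libraries. Counts of higher members changed for azaC in AAVS1 (1), to 0 with the compared groups only and 0 without both libraries, for azaC in RNF25 KO (0), to 1 without the filter, for untreated ZNF598 KO (0), to 1 with DESeq2 and 1 with limma-voom, and for untreated eS31 K113R (0), to 1 with limma-voom. No count of members changed with 1 untreated eS31 K113R library. The causes were not tested, except that fits to the compared groups have fewer residual degrees of freedom and no filter means 27878 genes to adjust over.

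With the replicate block, lower members numbered 2 for HF in AAVS1, 1 for HF against azaC in AAVS1, 3 in RNF25 KO (NOP16, BYSL and NIP7) and 2 in GCN2 KO (NOP16 and BYSL), and 1 in untreated eS31 K113R; higher members numbered 1 in untreated ZNF598 KO and 1 in untreated eS31 K113R. In HF against azaC not every same-numbered pair correlated: the values were -0.019, -0.219 and 0.148 in RNF25 KO and 0.092, -0.007 and 0.122 in GCN2 KO. The RNF25 KO value of -0.219 is that of replicate 2, whose azaC library had an outlying GC slope. What a number shares in these 2 comparisons is not known. With block and GC-corrected offsets together, lower members numbered 3 for HF in AAVS1, 1 for HF against azaC in AAVS1, and 1 each in untreated ZNF598 KO, eS31 K113R and RNF25 GCN2 DKO, and 1 was higher in untreated ZNF598 KO. The block changed no other count of members. Of 45 libraries, 42 correlated best with their own number. Over all genes, calls rose with the block from 171 to 377 for HF in AAVS1, 192 to 407 in RNF25 KO and 137 to 250 in GCN2 KO. Over all settings they ran from 67 to 451, 111 to 442 and 45 to 285 there, from 4 to 30 (13 reported) for azaC in AAVS1, 27 to 110 (52) in RNF25 KO and 26 to 94 (57) in eS31 K113R, from 25 to 86 (37), 0 to 2 (0) and 23 to 55 (30) for the HF differences, and from 50 to 254 (110), 2 to 414 (81) and 30 to 281 (119) for HF against azaC. In untreated cells they ran from 59 to 310 (179) in RNF25 KO, 21 to 238 (116) in GCN2 KO, 23 to 218 (103) in ZNF598 KO, 76 to 523 (318) in eS31 K113R and 47 to 288 (157) in the double knockout.

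Leaving out 1 library at a time, lower members ranged from 0 to 1 for HF in AAVS1, 0 to 2 in RNF25 KO and 0 to 1 in GCN2 KO, and for HF against azaC from 0 to 1 (1 without AAVS1 HF replicate 3), 0 to 3 (3 without azaC replicate 1) and 0 to 1. Higher members ranged from 0 to 1 for HF in AAVS1 (LAS1L, without untreated replicate 3), 0 to 1 for azaC in AAVS1 and 0 to 1 in RNF25 KO (MRTO4, without azaC replicate 3). In untreated cells higher members ranged from 0 to 1 in RNF25 KO (LAS1L, without AAVS1 replicate 3), 0 to 2 in ZNF598 KO (KRI1 without AAVS1 replicate 1, KRI1 and BOP1 without replicate 3) and 0 to 1 in eS31 K113R (KRI1, without AAVS1 replicate 1 or 3). Lower members ranged from 0 to 1 in eS31 K113R (LAS1L without AAVS1 replicate 2, RRS1 without eS31 K113R replicate 1). Of the tested members, MRTO4, NIP7, UTP15, KRI1, POLR1B and POLR1A had libraries with 17 to 22 counts, so small changes of these were not detectable at this depth.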

Other observations

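NOP14, a protein of the small subunit processome outside the 33 members, was lower in untreated cells of both lines that lack RNF25. Untreated, it stood at 212, 206 and 202 CPM in AAVS1, 77.3, 114 and 88.5 CPM in RNF25 KO and 97.7, 89.99 and 81.3 CPM in RNF25 GCN2 DKO, without overlap. The log2 fold changes against AAVS1 were -1.14 ± 0.16 in RNF25 KO (edgeR adjusted p = 2.85e-06) and -1.20 ± 0.16 in the double knockout (8.04e-07). They were -0.09, -0.04 and -0.22 in GCN2 KO, ZNF598 KO and eS31 K113R, and these did not pass (0.936, 0.964 and 0.644). These contrasts share the AAVS1 libraries. With azaC, NOP14 stood at 92.0 ± 17.5 (SD, n = 3) CPM in RNF25 KO and 99.9 ± 8.41 CPM in the double knockout, and at 180.0 to 191 CPM in the other 4 genotypes. With HF it stood at 104 ± 9.78 CPM in RNF25 KO, 216 ± 2.04 CPM in AAVS1 and 182 ± 23.5 CPM in GCN2 KO. NOP14 was singled out after its values were seen, and whether the difference belongs to the knockout or to the clones was not tested. Whether genes near NOP14 on its chromosome share the difference was not tested either.

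In untreated cells, 1 further gene of the fixed list of ribosome biogenesis genes passed in each of 2 other genotypes. Of all genes, 0.93% passed in ZNF598 KO and 2.87% in eS31 K113R, in either direction (edgeR). NOB1, the endonuclease that makes the mature end of the small subunit rRNA, was 0.84 lower in ZNF598 KO (log2, edgeR adjusted p = 0.0219). The call was lost without AAVS1 replicate 3 (0.148) or ZNF598 KO replicate 1 or 2 (0.136 and 0.0936). UTP14A, a processome protein, was 0.91 lower in eS31 K113R (edgeR adjusted p = 0.00382), and 1.04 lower with replicate 1 alone. The UTP14A call was lost without eS31 K113R replicate 3 (0.0568). Whether genes near NOB1 or UTP14A on their chromosomes share these differences was not tested. Nor was it tested whether the differences belong to the genotypes or to the clones.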
